A study of Mus musculus with 30 samples.

Results

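The liver was compared between mice lacking Clpp and wild-type littermates. The comparison rests on 6 of the 30 arrays of the series, chosen by their titles: liver knock out replicates 1 to 3 against liver wild type replicates 1 to 3. The labels give the genotypes as ClpP KO and WT, both on a C57BL/6 background, and name no allele, age or sex. The series crosses these genotypes with 5 tissues (testis, liver, skeletal muscle, brain and heart), 3 arrays for each of the 10 groups. All mice had food and water ad libitum under a 12/12 h light/dark cycle, and total RNA was labelled from 100 ng per array. Values are log2 expression per probe set, and each of the 17097 genes tested is read from its brightest probe set. The labels do not say that the 3 arrays of a group came from separate animals, so p-values measure only the spread between these samples, which may be technical.

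ClpP is the proteolytic subunit of the ClpXP protease of the mitochondrial matrix, where it degrades proteins that the partner ATPase ClpX unfolds. Hepatocytes are rich in mitochondria and carry out bile acid synthesis, lipid and glucose metabolism, drug metabolism and the making of plasma proteins. Many mouse liver transcripts differ between males and females because the pituitary releases growth hormone in pulses in males and more evenly in females. Cells also answer nucleic acids that leave the mitochondrion, or viral ones, by making type I interferon, which turns on a shared set of antiviral genes.

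Wild-type replicate 3 and knockout replicate 1 stood apart from the other liver arrays. Over all genes tested the correlation between 2 arrays of the knockout group ran from 0.9885 to 0.9922. Within wild type it was 0.9934 between replicates 1 and 2, and 0.9853 and 0.9872 between those and replicate 3. Knockout replicate 1 had the largest 3'-minus-5' differences of the actin and GAPDH control probe sets among all 30 arrays, 2.39 and 1.66, a sign of RNA quality. The actin difference ran with genotype: it was 2.05 and 1.79 on knockout replicates 2 and 3, above the 1.69, 1.77 and 1.67 of the wild-type arrays. The GAPDH difference was 0.77 to 1.03 on the other 5 arrays. The part of RNA quality in the results was not tested. The median over genes of the SD within a group was 0.154 in knockout and 0.150 in wild type, inside the range of 0.118 to 0.166 of the other groups. Among genes with a group mean of at least 6, 57 had an SD above 1 in wild type and 19 in knockout, and in 41 of those 57 wild-type replicate 3 was the array farthest from the other two. Array medians in liver were 3.24 to 3.29, and a change with a lower group mean under 4 is therefore read as a lower bound.

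Of the 17097 genes 156 rose in knockout liver (0.912% of those tested) and 257 fell (1.5%), together 2.42%, by limma at an adjusted p under 0.05. At least 1 log2 unit separated the genotypes in 59 of the rises and 80 of the falls. The test took each gene's spread from all 30 arrays, so for a gene that varies more in liver than elsewhere the SE and p can be too small. In a fit of the 6 liver arrays alone 31 genes were called (0.181%), 29 of them in both fits, 14 higher and 15 lower (0.17% together). Of the 413 called genes 382 had groups that did not overlap, against 16.7% of all genes, and 177 kept the call whichever single liver array was left out. Both counts come from the values that gave the calls, so they are no independent support for them. The median change of all genes was 0.00, and that of the 5603 brighter genes (mean of at least 6 in a liver group) was -0.04. Of those brighter genes 4.6% were called, 1.68% higher and 2.93% lower. Of 760 genes whose wild-type liver mean lay at least 2 log2 units above that of every other wild-type tissue 25 rose (3.29%) and 56 fell (7.37%).

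**Figure D1:**
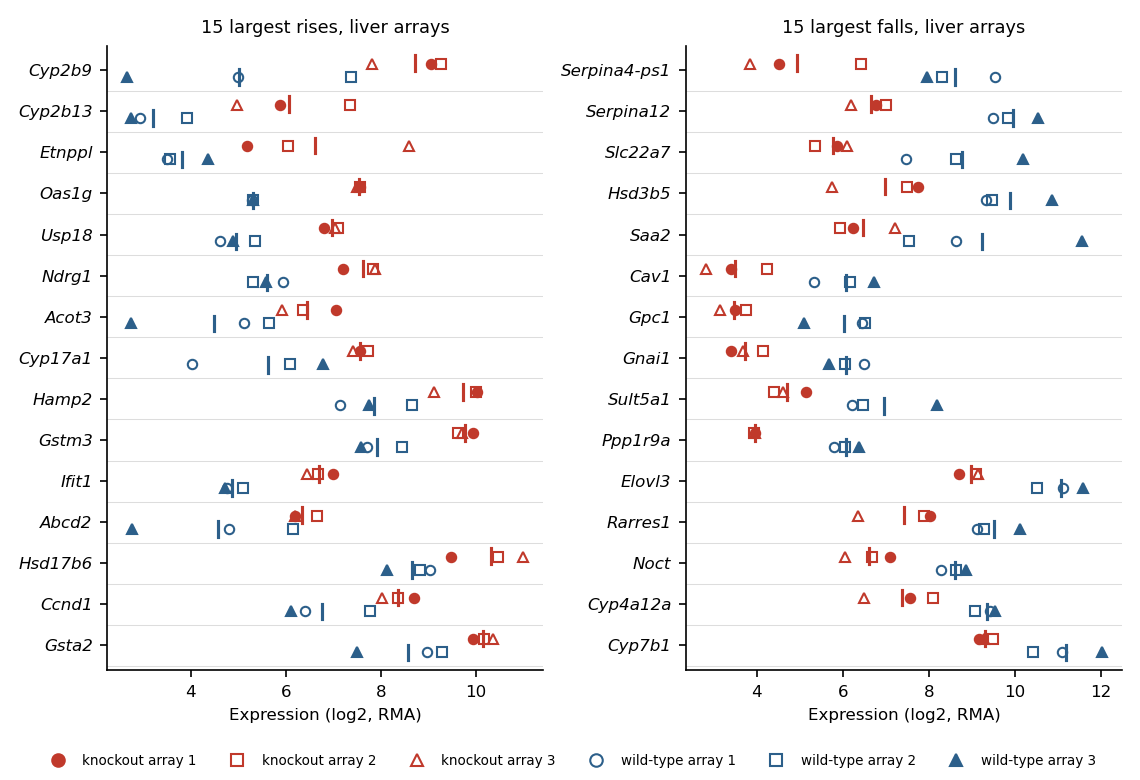
Log2 expression on the 6 liver arrays of the 15 genes with the largest rises and the 15 with the largest falls among called genes other than Clpp with a mean of at least 6 in a genotype and groups that do not overlap, with 2 rises and 5 falls of clone or predicted gene names left out. Circles, squares and triangles are replicates 1, 2 and 3, filled for knockout replicate 1 and wild-type replicate 3, and short vertical lines are group means. For Oas1g the knockout arrays run from 7.50 to 7.57, while for Cyp2b9 the wild-type arrays spread from 2.66 to 7.38.

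Clpp, the targeted gene, was checked first. It stood at 3.68, 3.23 and 3.15 on knockout replicates 1, 2 and 3 and at 8.77, 8.75 and 8.70 on wild-type replicates 1, 2 and 3, the order in which array values are given throughout. The knockout values lie near the array medians, and the groups are far apart. The change of -5.39 ± 0.19 (SE, n = 3 per genotype; adjusted p = 8.34e-16) is a lower bound of 41.9-fold. None of the 100 measured genes nearest to Clpp on chromosome 17, 50 on each side, was called by limma, with 13 at an unadjusted p under 0.05 and a median change of 0.01.

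Counts of called transcripts of the mitochondrion were read against the 2.42% of all genes that were called. Of 21 mitochondrial proteases and chaperones none was called by limma, with 1 higher and 3 lower at an unadjusted p under 0.05. Their changes ran from -0.38 to 0.29. Lonp1, the other large protease of the matrix, stood at 8.43, 8.51 and 8.5 in knockout and at 8.46, 8.42 and 8.17 in wild type, so the groups overlap. None of 41 nuclear genes of complex I, assembly factors included, was called, with 2 lower at an unadjusted p under 0.05 and a range of -0.29 to 0.20. Of 47 genes of complexes II to V, cytochrome c included, Cox7a1, the heart and muscle form of a cytochrome oxidase subunit, rose by 0.93 ± 0.20, and leaving out knockout replicate 2 ended the call (adjusted p = 0.0661). It stood at 4.22, 5.01 and 4.55 in knockout and 3.67, 3.89 and 3.42 in wild type, which makes the value a lower bound.

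Of the mitochondrial translation system 3 genes fell, and the counts below are set against the 1.5% of all genes that fell. Of 73 mitochondrial ribosomal proteins 62 had a negative change, with a median of -0.13, where 42.4% of the brighter genes had a positive change, and only Mrps18a, a protein of the small subunit, fell (-0.61 ± 0.12, adjusted p = 0.00565). Without knockout replicate 3, 5 of them fell. The 20 members whose knockout arrays all lay below wild type compare with 8.8% of all genes. Of 36 genes of mitochondrial DNA upkeep, transcription and translation 29 had a negative change (median -0.09) and 2 fell. Noa1, a GTPase of mitoribosome assembly, stood at 5.12, 5.45 and 5.39 in knockout and 5.99, 6.09 and 5.77 in wild type. Nars2, the mitochondrial asparaginyl-tRNA synthetase, stood at 5.86, 5.76 and 5.84 against 6.37, 6.28 and 6.70. Both fell by 0.63, with SEs of 0.13 and 0.12, and in both the groups do not overlap. A second probe set of Nars2 gave -0.10.

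Stress programs known to answer mitochondrial faults were read against the shares of all genes called, 0.912% higher and 1.5% lower. Of 25 genes of the integrated stress response and its secreted mitokines 1 rose and none fell, with a median of 0.08. Only 8 of the 25 had a mean of at least 6 in a liver group. The rise was Vldlr, a lipoprotein receptor, which stood at 5.07, 4.45 and 4.29 in knockout and at 3.17, 3.98 and 2.81 in wild type and rose by at least 1.28 ± 0.26 (adjusted p = 0.00456). The 5 probe sets of Vldlr gave changes of 0.08 to 1.35. Fgf21, a hormone the stressed liver secretes, read 2.78, 3.15 and 3.48 in knockout and 4.04, 4.19 and 2.66 in wild type, so the groups overlap. Asns, asparagine synthetase, stood at 3.69, 3.68 and 2.98 against 4.14, 3.24 and 6.30, its high value on wild-type replicate 3. None of 25 endoplasmic reticulum and heat shock chaperones was called by limma, although 23 had a negative change (median -0.27) and 6 were lower at an unadjusted p under 0.05.

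Antiviral genes that type I interferon turns on were higher in knockout liver. Of 39 type I interferon-stimulated genes 16 rose, against 0.912% of all genes, and none fell. Their median change was 0.60 against 0.00 over all genes. In 21 of the 39 all knockout arrays lay above all wild-type arrays, against 7.9% of all genes. The mean level of the 39 genes was 6.18, 6.28 and 6.16 on the knockout arrays and 5.34, 5.56 and 5.58 on the wild-type arrays. Leaving out 1 liver array at a time gave 13 to 18 rises, and the fit of liver alone gave 8. In bulk tissue a change in the number of cells of a type and a change in RNA per cell cannot be told apart.

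The promoters shown are those of genes of this list called in both fits that hold the sequence bound by interferon-activated transcription factors. Usp18 was also called in both, but no promoter sequence of it was available here, so it was not searched. The interferon-stimulated response element was searched as GAAA, 2 bases of any kind and GAAA again, on both strands, in the 250 bases before the RefSeq start site (GRCm38.p6). It was present in 2.98% of 32851 promoters and in 3.11% of the 13514 tested genes that had one. Among the 25 genes of the list with a promoter 8 held it (32.0%), and among all 116 rises with a promoter 15 did (12.9%). Of the 216 falls with a promoter 6 held it (2.78%). Capitals mark the motif, which reads with TTTC in place of GAAA where it lies on the other strand. In the promoter of Oas1g 2 matches overlap, so that the capitals form one run.

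Ifit1, chr19:34640639-34640888, plus strand, 2 matches: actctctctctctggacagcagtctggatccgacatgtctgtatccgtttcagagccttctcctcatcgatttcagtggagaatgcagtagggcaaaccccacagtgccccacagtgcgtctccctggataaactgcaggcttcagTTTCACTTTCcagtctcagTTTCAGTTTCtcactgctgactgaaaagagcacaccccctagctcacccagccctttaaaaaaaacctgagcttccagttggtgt

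Ifit3, chr19:34583279-34583528, plus strand, 2 matches: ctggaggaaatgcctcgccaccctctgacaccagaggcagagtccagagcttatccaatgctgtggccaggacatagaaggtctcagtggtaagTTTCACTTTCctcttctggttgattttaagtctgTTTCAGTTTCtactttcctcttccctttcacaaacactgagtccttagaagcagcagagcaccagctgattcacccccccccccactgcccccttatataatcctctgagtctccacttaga

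Rsad2, chr12:26456453-26456702, minus strand, 1 match: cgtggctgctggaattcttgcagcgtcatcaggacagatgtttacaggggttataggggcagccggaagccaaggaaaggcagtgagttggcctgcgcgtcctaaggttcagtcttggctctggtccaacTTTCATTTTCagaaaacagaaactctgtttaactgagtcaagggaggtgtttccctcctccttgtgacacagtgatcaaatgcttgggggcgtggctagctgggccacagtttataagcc

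Oas1g, chr5:120887614-120887863, minus strand, 2 matches: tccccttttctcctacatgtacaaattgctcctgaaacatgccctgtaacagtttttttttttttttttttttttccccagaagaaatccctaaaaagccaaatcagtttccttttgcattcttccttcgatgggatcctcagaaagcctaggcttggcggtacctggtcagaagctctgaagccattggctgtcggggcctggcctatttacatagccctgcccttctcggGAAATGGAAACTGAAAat

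The motif ended 95 and 76 bases before the start in Ifit1, 147 and 113 bases before it in Ifit3, 111 bases in Rsad2, and 9 and 3 bases in Oas1g. In the same window of Irf7 and Cmpk2 no match to these letters was found. A match is a description of the sequence and not a measured binding site.

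Antiviral effectors were among the rises of the list. Oas1g, a 2'-5' oligoadenylate synthetase, read 7.57, 7.56 and 7.50 in knockout and 5.29, 5.30 and 5.30 in wild type. The arrays of each genotype nearly coincide, and the rise was 2.24 ± 0.17, or 4.74-fold (adjusted p = 4.33e-09). Ifit1, which binds viral RNA, stood at 6.99, 6.67 and 6.45 against 4.77, 5.11 and 4.72, a rise of 1.83 ± 0.19 (adjusted p = 9.07e-07). Its neighbour of the same family Ifit3 read 6.90, 6.86 and 6.71 against 5.38, 5.77 and 5.58 (1.25 ± 0.23, adjusted p = 0.00160). Rsad2, also called viperin, which makes a chain-terminating nucleotide, stood at 8.21, 8.02 and 7.90 against 6.5, 6.95 and 6.41 (1.43 ± 0.16). Cmpk2, a mitochondrial nucleotide kinase encoded beside Rsad2, read 4.71, 4.74 and 4.34 against 3.38, 3.42 and 3.24. Its rise of at least 1.25 ± 0.15 had an adjusted p of 4.82e-06. For each of these genes the groups do not overlap, and each was called in both fits. Probe sets of the Oas1 and Ifit families can share sequence with near-identical paralogs, so the member named is uncertain.

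Regulators of the response rose as well. Usp18, a protease that removes ISG15 from proteins and damps interferon signalling, stood at 6.8, 7.10 and 7.04 in knockout and 4.62, 5.36 and 4.88 in wild type (2.03 ± 0.19, or 4.08-fold; adjusted p = 2.23e-07). Irf7, the transcription factor that amplifies interferon production, read 6.90, 7.14 and 6.99 against 5.90, 5.74 and 5.30 (1.36 ± 0.20, adjusted p = 0.000121). Both were called in both fits, and in both the groups do not overlap. Of the complex that carries the interferon signal to these genes 2 members were measured and not called, Irf9 at 6.27, 6.59 and 6.52 against 5.92, 5.91 and 6.16 (adjusted p = 0.0987), and Stat2 at 5.69, 6.16 and 5.54 against 5.26, 5.63 and 5.77 (adjusted p = 0.696).

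Among the remaining rises of the list Xaf1, Oas2, Trim30a, Rtp4 and Ifi27 changed by between 0.92 and 1.32. Ifi27 was the brightest of these, at 10.2, 10.4 and 10.8 in knockout and 9.57, 9.54 and 9.60 in wild type. Dhx58, an RNA sensor, Oasl2, Samd9l and Mx2 rose by between 0.71 and 0.89, and each lost its call without at least 2 of the 6 single arrays, with adjusted p up to 0.144, 0.0838, 0.169 and 0.0600. Ifi27l2a stood at 6.17, 6.33 and 6.45 against 4.90, 5.28 and 4.97 and was called with liver alone (adjusted p = 0.0246) but not in the fit of all arrays (adjusted p = 0.261).

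None of 25 interferons, receptors and sensors passed limma's test, with 5 higher at an unadjusted p under 0.05 and a median of 0.11. Ifnb1 had means of 2.66 in knockout and 2.60 in wild type, below the array medians. Among 10 interferon-inducible GTPases, which attack the vacuoles of intracellular microbes, 2 rose (median 0.52), against 0.912% of all genes. Gbp3 read 6.5, 5.86 and 5.64 against 4.57, 4.81 and 4.92 (1.23 ± 0.22). Igtp read 8.23, 8.02 and 8.03 against 7.12, 6.73 and 6.54 and was called in both fits, yet its call in the fit of all arrays depended on every liver array except wild-type replicate 1 (adjusted p up to 0.105). Of 12 genes of class I antigen presentation only Tapbp, which loads peptides onto class I molecules, rose (0.74 ± 0.15). It stood at 9.20, 9.17 and 9.09 against 8.19, 8.56 and 8.48, and a second probe set gave -0.34.

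The knockout effect on 5 of the 39 genes was smaller in liver than the mean effect in muscle, brain and heart. The change in Ifit1 was 1.83 in liver, 2.23 in muscle, 2.73 in brain and 3.86 in heart. The difference of liver from the mean of the other 3 was -1.11 (adjusted p = 0.00733). Ifit3 differed by -1.28 (adjusted p = 0.00998), Ifit2 by -0.78 (adjusted p = 0.0487) and Ifi27 by -0.62 (adjusted p = 0.0232). The fifth member called below the other tissues was Parp9, a regulator of interferon signalling, at -0.65, against 0.76% of all genes. None of the 39 genes was called above them by limma. Oas1g at 0.74 had an adjusted p of 0.0643. Of the 39 genes 16 rose in muscle, 16 in brain and 20 in heart, against 0.778%, 0.234% and 1.11% of all genes. The genes called higher in liver, muscle, brain and heart numbered 13, among them Ifit1, Ifit3, Irf7, Oas1g, Oasl2, Rsad2, Rtp4, Trim30a, Usp18 and Xaf1 of this list.

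**Figure D2:**
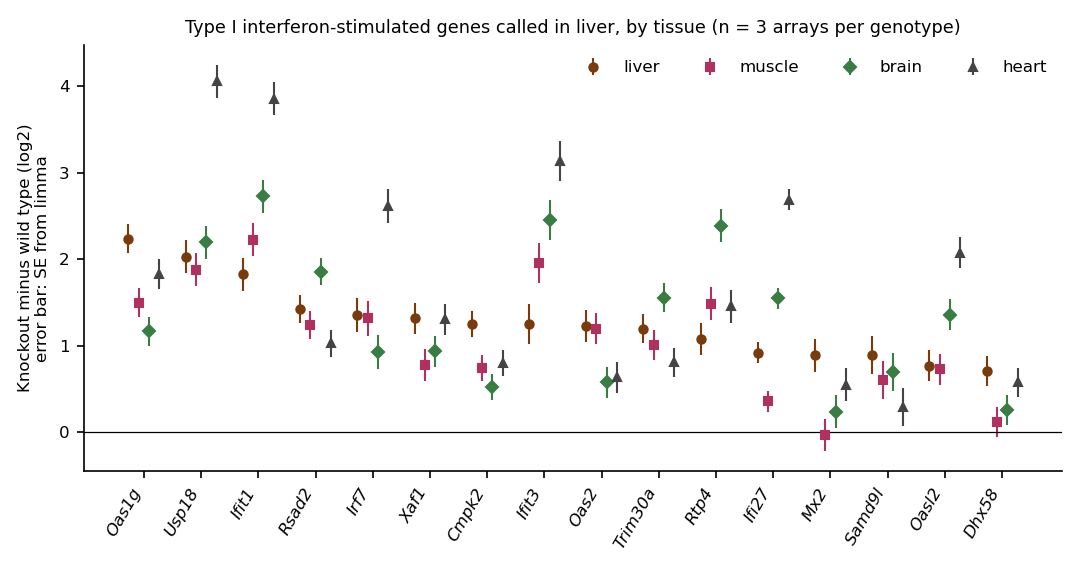
Knockout minus wild-type difference (log2, with the SE from limma, n = 3 arrays per genotype) of the 16 type I interferon-stimulated genes called in liver, shown for liver, muscle, brain and heart. Ifit1 stands at 1.83 in liver and 3.86 in heart, and Oas1g at 2.24 in liver and 1.17 in brain.

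Called female-predominant genes were higher and called male-predominant genes lower in knockout liver. Of 20 female-predominant genes 6 rose and none fell (median 0.76), against 0.912% of all genes. Of 20 male-predominant genes 10 fell and none rose (median -1.16), against 1.5% of all genes. In 12 of the 20 all knockout arrays lay below wild type, against 8.8% of all genes. The mean level of the male-predominant list was 10.05 on wild-type replicate 3, 8.97 and 8.83 on wild-type replicates 1 and 2 and 8.12 to 8.17 in knockout, and 9 of its genes fell when wild-type replicate 3 was left out. The mean level of the female-predominant list was 5.69, 5.49 and 5.09 in knockout and 4.38, 5.16 and 3.89 in wild type. The sex of the mice is not labelled, and the sex chromosome transcripts did not differ between genotypes by limma. Eif2s3y, encoded on the Y chromosome, stood between 7.56 and 7.79 on all 6 arrays, and Xist, made by the inactive X chromosome, between 2.81 and 3.33. With liver alone, 2 of the 10 falls and none of the 6 rises were called.

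Wild-type levels of the female-predominant genes varied widely. Cyp2b9, a cytochrome P450 of female liver, read 9.06, 9.27 and 7.81 in knockout and 4.99, 7.38 and 2.66 in wild type. The groups do not overlap, but wild-type replicates 2 and 3 are more than 4 log2 units apart. The rise was 3.70 ± 0.59 (adjusted p = 0.000392), with an adjusted p of 0.277 in liver alone. Its close paralog Cyp2b13 stood at 5.88, 7.35 and 4.98 against 2.94, 3.92 and 2.75, a rise of at least 2.87 ± 0.33 (adjusted p = 4.69e-06). Probe sets of the 2 genes can share sequence. Cyp2b10, the family's main target of the receptor CAR, read 5.30, 5.15 and 5.09 against 3.31, 5.64 and 3.50 and was not called (adjusted p = 0.155).

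Cyp17a1, a steroid hydroxylase, stood at 7.57, 7.72 and 7.41 in knockout, close together, and at 4.03, 6.09 and 6.78 in wild type (1.93 ± 0.36, adjusted p = 0.00228, and 0.321 in liver alone). Hamp2, a copy of the hepcidin gene, read 10.0, 10.0 and 9.12 against 7.14, 8.66 and 7.76 (1.86 ± 0.28, adjusted p = 0.000161). A probe set not shared between genes gave -0.10 for Hamp2, and whether the brighter one also takes another gene's transcript was not tested. Hamp, the iron hormone hepcidin itself, stood at 11.5, 11.7 and 10.9 against 11.7, 11.7 and 11.7 and was not called (adjusted p = 0.911). Acot3, a peroxisomal acyl-CoA thioesterase, read 7.06, 6.36 and 5.93 against 5.12, 5.64 and 2.74 (1.95 ± 0.40), and leaving out knockout replicate 1 ended its call (adjusted p = 0.0569). Abcd2, a peroxisomal fatty acid transporter, read 6.2, 6.65 and 6.2 against 4.80, 6.16 and 2.76 (1.78 ± 0.46). Its call depended on every liver array except wild-type replicate 2 (adjusted p up to 0.210 when 1 was left out). Without knockout replicate 1 the list had 4 rises. Ntrk2, a neurotrophin receptor, was not called, at an adjusted p of 0.0779, and its change was -1.11.

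The falls of male-predominant genes included 2 that were called in both fits. Elovl3, which elongates very long fatty acids, stood at 8.69, 9.10 and 9.14 in knockout and 11.1, 10.5 and 11.6 in wild type (-2.10 ± 0.18, or 4.29-fold; adjusted p = 6.72e-08). Cyp2d9, a steroid hydroxylase of male liver, read 10.6, 10.5 and 10.9 against 11.9, 11.6 and 11.7 (-1.05 ± 0.12, adjusted p = 4.87e-06). No other member was called in both. Hsd3b5, a steroid reductase of male liver, read 7.74, 7.48 and 5.75 against 9.32, 9.46 and 10.9 (-2.89 ± 0.34, adjusted p = 5.86e-06, and 0.153 in liver alone). Cyp4a12a, a fatty acid and arachidonate hydroxylase, stood at 7.55, 8.10 and 6.49 against 9.43, 9.07 and 9.54 (-1.96 ± 0.23). In all 4 genes every knockout array lies below every wild-type array.

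Slco1a1, an organic anion uptake transporter, read 9.11, 9.10 and 8.84 against 10.2, 10.0 and 10.7 (-1.27 ± 0.12, adjusted p = 4.01e-07). C6, a complement component of the membrane attack complex, stood at 7.07, 7.04 and 7.17 against 8.58, 8.03 and 9.25 (-1.53 ± 0.19). Both genes were uniform in knockout and highest on wild-type replicate 3. Capn8, a calpain protease, was near the array medians in knockout at 2.59, 2.61 and 2.57 and read 3.86, 4.33 and 6.34 in wild type, with a change of at most -2.25 ± 0.33. Keg1, an acyltransferase of the glycine conjugation family, read 8.71, 9.38 and 8.66 against 9.94, 9.91 and 9.68 (-0.92 ± 0.14). Ugt2b1, a glucuronosyltransferase, fell by 0.36 ± 0.10, and its call depended on every array except wild-type replicate 1 (adjusted p up to 0.261 when 1 was left out). Moxd1 stood at 10.3 on wild-type replicate 3 and between 2.71 and 2.95 on the other 5 arrays, and was not called.

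**Figure D3:**
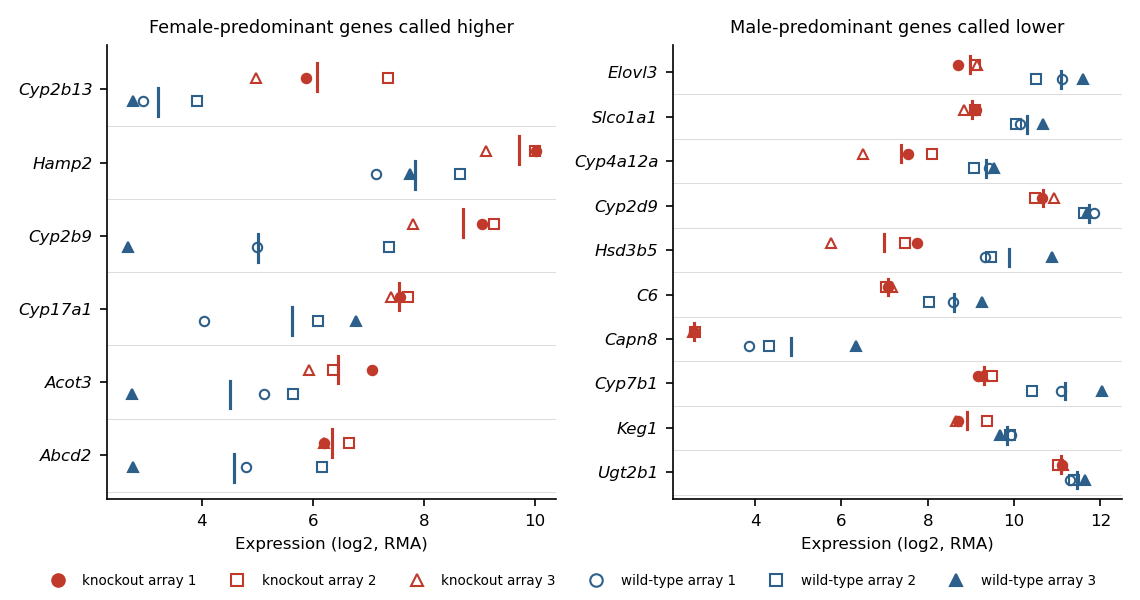
Log2 expression on each liver array of the 6 female-predominant genes called higher and the 10 male-predominant genes called lower. The wild-type arrays of Cyp2b9 run from 2.66 to 7.38 and overlap with no knockout array, and those of Elovl3 run from 10.5 to 11.6, above the highest knockout value of 9.14.

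The growth hormone pathway was read from a list of 20 genes, where 2.42% of all genes tested were called. Of 20 genes on that list only Igfbp1, a secreted binder of insulin-like growth factors that insulin represses, was called. It stood at 9.31, 11.1 and 11.3 in knockout and 9.66, 7.02 and 8.76 in wild type, so knockout replicate 1 lies below wild-type replicate 1 (2.09 ± 0.42, adjusted p = 0.00469). The related Igfbp2 read 10.4, 10.9 and 11.1 against 9.27, 8.98 and 10.6 and was not called (adjusted p = 0.0553). Ghr, the growth hormone receptor, read 11.2 on each knockout array and 11.5, 11.6 and 11.6 in wild type, and Stat5b, which carries its signal, lay between 6.97 and 7.50 on the 6 arrays. Igf1, the main hormone made in answer, lay between 10.8 and 11.3. Several regulators varied widely within a genotype. Onecut1, a female-predominant transcription factor, stood at 8.53, 8.76 and 4.07 in knockout and 8.39, 8.42 and 6.86 in wild type. Socs2, a feedback inhibitor of the pathway, read 7.79, 9.0 and 6.56 against 8.69, 7.72 and 7.41. Bcl6, a male-predominant repressor of female-predominant genes, read 5.10, 5.44 and 8.36 against 6.96, 6.92 and 8.98. In Onecut1 and Bcl6 the third replicate of each genotype departed from the other two in the same direction.

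Of 26 glutathione transferases, which conjugate electrophiles for export, and other targets of the regulator Nrf2 7 rose and none fell (median 0.43), against 0.912% of all genes. Gstm3 read 9.94, 9.63 and 9.71 in knockout and 7.70, 8.44 and 7.59 in wild type (1.85 ± 0.18, or 3.61-fold; adjusted p = 4.16e-07) and was called in both fits. Gsta4, which detoxifies products of lipid peroxidation, stood at 9.88, 10.2 and 10.2 against 9.27, 9.60 and 9.08 (0.77 ± 0.14). Gsta2 read 9.93, 10.2 and 10.4 against 8.97, 9.28 and 7.50 (1.57 ± 0.34), which was no longer called when wild-type replicate 3 was left out (adjusted p = 0.0710). Gstm2, Gstm1 and Gstm6 rose by 1.04, 0.72 and 0.50, and the last 2 lost their calls without at least 3 single arrays (adjusted p up to 0.160 and 0.111). Near-identical members of the Gstm family can share probes. Hmox1, heme oxygenase, read 5.29, 4.79 and 7.11 against 4.58, 4.23 and 4.2, its value high on knockout replicate 3, without which the call was lost, as it was without wild-type replicate 2 or 3 (adjusted p up to 0.0661). The list's mean level was 8.25 on wild-type replicate 3 and 8.51 to 8.98 on the other arrays, and 3 of its genes rose when that array was left out. Nqo1, a defining Nrf2 target, read 6.46, 5.68 and 5.19 against 5.14, 5.94 and 4.99 and was not called, nor was Gclc of glutathione synthesis.

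Of 39 other cytochromes P450 and targets of the receptors CAR and PXR 3 rose and 1 fell, with a median of 0.11, against 0.912% and 1.5% of all genes. Cyp2a5, which hydroxylates coumarin, stood at 11.1, 11.1 and 10.6 against 10.4, 10.1 and 9.33 (0.99 ± 0.19). Its only probe set is of a type that can be shared between genes, so the member named is uncertain. Cyp2c55 read 7.31, 7.24 and 6.49 against 5.19, 6.41 and 6.32 (1.04 ± 0.22), which was not called when knockout replicate 1 was left out (adjusted p = 0.0622). Abcb1a, a drug efflux pump, read 4.08, 4.41 and 4.80 against 3.0, 3.61 and 2.89, a rise of at least 1.26 ± 0.21. The list's counts depended on single arrays, with 7 rises without knockout replicate 3 and 6 without wild-type replicate 3. Cyp2e1, Cyp3a11 and Cyp1a2, among the brightest P450s of liver, were not called, with means of 12.8, 12.7 and 12.3 in knockout and 12.8, 12.5 and 11.8 in wild type.

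Bile acid and sterol genes moved both ways. Of 23 genes of bile acid synthesis and transport 2 rose and 4 fell, against 0.912% and 1.5% of all genes. Slc22a7, an uptake transporter of organic anions, had the largest change, at 5.87, 5.35 and 6.10 in knockout and 7.46, 8.63 and 10.2 in wild type (-2.98 ± 0.34, or 7.91-fold; adjusted p = 4.57e-06). Its wild-type arrays spread widely and all lie above the knockout arrays. With liver alone the SE was 0.60 and Slc22a7 was not called by limma (adjusted p = 0.153). Cyp7b1, the oxysterol hydroxylase of the alternative pathway and a male-predominant gene, read 9.17, 9.48 and 9.29 against 11.1, 10.4 and 12.0 (-1.86 ± 0.28, adjusted p = 0.000163). Cyp8b1, which makes the precursors of cholic acid, stood at 9.79, 9.0 and 8.42 against 10.5, 10.0 and 10.4 (-1.23 ± 0.21, adjusted p = 0.000714). Cyp7a1, the rate-limiting enzyme of the classic pathway, read 7.85, 6.79 and 6.56 against 6.98, 7.95 and 9.48 and was not called (adjusted p = 0.117). Slco1a4, an uptake transporter related to Slco1a1, rose by 1.04 ± 0.17, from 7.97, 8.59 and 8.13 in wild type to 9.63, 9.02 and 9.14 in knockout. Slc51b, a subunit of the bile acid exporter of the basolateral membrane, rose by at least 0.72 ± 0.19, a call lost without knockout replicate 3 or wild-type replicate 1 or 2 (adjusted p up to 0.253).

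Export of sterols into bile was the only part of cholesterol handling with calls. Abcg5 read 9.46, 9.37 and 9.15 against 8.70, 8.58 and 7.88 (0.94 ± 0.15, adjusted p = 0.000270). Its obligate partner Abcg8 read 6.99, 6.89 and 6.61 against 6.69, 5.95 and 4.95 (0.97 ± 0.25), where the groups overlap and the call was lost without 4 of the 6 single arrays (adjusted p up to 0.237). None of the other 21 genes on the list of 23 was called. Of 24 genes of lipogenesis none was called by limma, with 3 higher at an unadjusted p under 0.05, and 20 had a positive change (median 0.25). The wild-type arrays differ among themselves here: Fasn, fatty acid synthase, stood at 9.52, 11.8 and 10.4 in wild type and at 11.9, 11.2 and 10.8 in knockout.

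Of 33 targets of PPAR-alpha, the receptor of the fasting liver, 1 rose and 2 fell (median -0.12), against 0.912% and 1.5% of all genes. Of 19 genes of mitochondrial fatty acid oxidation none was called by limma, with 3 lower at an unadjusted p under 0.05. Fitm1, a protein of lipid droplet formation, read 8.23, 7.65 and 6.24 in knockout and 9.77, 9.72 and 8.22 in wild type (-1.87 ± 0.38), with knockout replicate 1 just above wild-type replicate 3. Cidea, a lipid droplet fusion protein, was near the array medians in knockout at 3.04, 2.65 and 2.56 and read 8.10, 6.8 and 2.55 in wild type. Wild-type replicate 3 lies with the knockout arrays, and the call was lost without any other single array (adjusted p up to 0.159). The PPAR-alpha list as a whole was lower on wild-type replicate 3, with a mean level of 7.01 against 8.47 and 8.34 on wild-type replicates 1 and 2 and 7.49 to 7.99 in knockout. Without that array 7 of its genes fell and 1 rose. Its part in these results was otherwise not tested.

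Of 21 genes of gluconeogenesis, glycogen and insulin action 3 rose and 1 fell (median 0.08), against 0.912% and 1.5% of all genes. The rises were Igfbp1, Ndrg1 and Pck1. Members of this list, as of the others, were chosen with earlier results of these data known. Serpina12, the adipokine vaspin, stood at 6.77, 7.01 and 6.18 in knockout and 9.50, 9.84 and 10.5 in wild type. No arrays overlap, and the change of -3.31 ± 0.19, or 9.89-fold, was called in both fits (adjusted p = 3.85e-11, and 0.0111 in liver alone). Ndrg1, a stress-responsive gene, read 7.2, 7.84 and 7.87 against 5.94, 5.32 and 5.58 and was also called in both (2.02 ± 0.22, adjusted p = 1.39e-06). Pck1, the rate-setting enzyme of gluconeogenesis, had means of 3.20 and 2.62 at its probe set, near the array medians, and leaving out knockout replicate 1 ended its call (adjusted p = 0.0556). Of 30 genes of the urea cycle and amino acid breakdown only Etnppl, which breaks down phosphoethanolamine, rose. It stood at 5.18, 6.04 and 8.60 against 3.51, 3.57 and 4.36, highest on the third replicate of each genotype (at least 2.80 ± 0.45, adjusted p = 0.000392, and 0.266 in liver alone). Enzymes outside these lists were also among the 15 largest rises or called in both fits. Hsd17b6, a retinol and steroid dehydrogenase, read 9.48, 10.5 and 11.0 against 9.03, 8.82 and 8.12 (1.66 ± 0.23, adjusted p = 7.35e-05). Rdh16f2, of the same enzyme family, read 10.1, 9.95 and 9.91 against 8.06, 8.70 and 8.72 and was called in both fits (1.49 ± 0.13, adjusted p = 6.72e-08).

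Dio1, the deiodinase that activates thyroid hormone in liver, fell on every knockout array. It read 7.73, 7.97 and 7.54 in knockout and 9.30, 9.52 and 9.55 in wild type (-1.71 ± 0.11, or 3.27-fold; adjusted p = 4.39e-10, and 0.00899 in liver alone). Tsc22d1, a leucine zipper regulator, stood at 8.57, 7.96 and 7.77 against 9.81, 9.79 and 9.71 (-1.67 ± 0.14), and its 3 probe sets gave changes of -1.92 to -1.31. Noct, a clock-controlled phosphatase of NADP, read 7.09, 6.67 and 6.04 against 8.29, 8.62 and 8.87 (-1.99 ± 0.23, adjusted p = 4.04e-06). All 3 were called in both fits with no overlap between groups. Of 22 clock genes the other fall was Tef, a clock output factor, at 7.06, 7.06 and 7.24 against 8.20, 8.33 and 7.12. That call was lost without 4 of the 6 single arrays (adjusted p up to 0.187). Dbp, a related output factor, read 3.05, 3.12 and 3.70 against 5.57, 6.35 and 3.06 (adjusted p = 0.0583) and Npas2, of the clock's activating arm, 5.55, 5.31 and 4.46 against 3.02, 3.21 and 4.86 (adjusted p = 0.0838). In Tef, Dbp and Npas2 wild-type replicate 3 lay on the knockout side, and without it 4 clock genes fell and 2 rose. The labels give no time of collection.

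Further falls brought genes close to the array medians. Cav1, the coat protein of caveolae, stood at 3.39, 4.24 and 2.81 in knockout and 5.32, 6.16 and 6.73 in wild type, with a change of at most -2.59 ± 0.34 (adjusted p = 3.91e-05). Gpc1, a heparan sulfate proteoglycan, read 3.49, 3.75 and 3.15 against 6.45, 6.51 and 5.10, with a change of at most -2.56 ± 0.27. Gnai1, an inhibitory G protein subunit, read 3.40, 4.13 and 3.67 against 6.49, 6.06 and 5.67, with a change of at most -2.34 ± 0.36. Ppp1r9a, the scaffold neurabin, stood at 3.96, 3.94 and 3.96 against 5.79, 6.05 and 6.38, with a change of at most -2.12 ± 0.20. In each of the 4 genes the knockout arrays lie together below wild type, and Gnai1 and Ppp1r9a were called in both fits. Relatives of these genes on the same list, gathered around these 4 after they were known to fall, were not called, among them Gnai2 at 8.29 and 8.18 and Cav2 at 4.53 and 5.02 in the genotype means. Other probe sets gave smaller changes, down to -0.54 for Gnai1 and -0.05 for Ppp1r9a. The same held for other named genes, among them those that follow. Another probe set gave 0.10 for Cmpk2, 0.16 for Xaf1, 0.01 for Hsd17b6, -0.03 for Abcd2, -0.13 for Cyp7b1 and -0.39 for Capn8. It gave 0.08 for Mt1, 0.12 for Ifi213 and almost no change for Tef.

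Of 17 sulfotransferases and serpins 3 fell and 1 rose (median -0.03), against 1.5% and 0.912% of all genes. Its members too were chosen with earlier results of these data known, so these counts describe the list and are no test of it. The falls were Serpina12, Sult5a1 and Sult1b1. The rise was Serpina6, the carrier of corticosteroids in plasma (0.55 ± 0.13), and it was not called when knockout replicate 1 or wild-type replicate 3 was left out (adjusted p up to 0.0988). Serpina4-ps1, a transcribed pseudogene of the serpin cluster, read 4.52, 6.42 and 3.84 against 9.54, 8.30 and 7.95 (-3.67 ± 0.38, adjusted p = 9.74e-07, and 0.115 in liver alone). Its probes may also take transcripts of related serpins. Sult5a1, a sulfotransferase, stood at 5.13, 4.39 and 4.61 against 6.22, 6.47 and 8.19 (-2.25 ± 0.31). Rarres1, a retinoid-responsive carboxypeptidase inhibitor, read 8.03, 7.89 and 6.36 against 9.13, 9.29 and 10.1 (-2.09 ± 0.31). Sult1b1, which sulfates thyroid hormones, fell by 0.95 ± 0.14. Omd, a small proteoglycan, read 3.65, 3.39 and 3.35 against 5.28, 5.16 and 5.39, even within each genotype, with a change of at most -1.81 ± 0.18 in both fits. Ccnd1, the cyclin of entry into the cell cycle, rose from 6.41, 7.78 and 6.12 to 8.70, 8.37 and 8.02 (1.59 ± 0.36), a call lost without knockout replicate 1 or wild-type replicate 1 or 3 (adjusted p up to 0.0935). The proliferation markers Mki67 and Top2a stayed near the array medians, with means of 3.26 and 2.85 in knockout and 2.95 and 2.58 in wild type.

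Acute phase genes, which hepatocytes secrete in inflammation, stood high on wild-type replicate 3. Their mean level was 10.1 on that array and 8.92 to 9.18 on the other 5. Of 27 members 4 fell and 1 rose (median -0.17), against 1.5% and 0.912% of all genes. Saa2, a serum amyloid A of inflammation, read 6.23, 5.94 and 7.21 in knockout and 8.63, 7.53 and 11.6 in wild type (-2.78 ± 0.53, adjusted p = 0.00293, and 0.342 in liver alone). Saa1 read 7.22, 7.36 and 8.41 against 8.93, 8.12 and 12.2, where knockout replicate 3 exceeds wild-type replicate 2, and its call was lost without knockout replicate 1 or 2 or wild-type replicate 3 (adjusted p up to 0.156). Saa4, the constitutive form, read 9.76, 9.81 and 9.74 against 10.4, 10.3 and 10.9 (-0.74 ± 0.14). Steap4, a metalloreductase, fell by 1.12 ± 0.23. Orm2, Lcn2 and the chemokine Cxcl1 were not called and stood at 10.1, 9.17 and 9.16 on wild-type replicate 3, against highest values of 6.72, 6.4 and 6.09 on the other 5 arrays. Without that array 3 acute phase genes fell. Mt1, a metallothionein, was the rise, at 9.51, 8.55 and 8.36 against 7.87, 6.81 and 7.51 (1.41 ± 0.30), lost without knockout replicate 1 or wild-type replicate 2 (adjusted p up to 0.0779).

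Within wild type, replicate 3 was the extreme array for each of the 10 genes of largest SD except Plk3, whose arrays were evenly spread. Cyp4a10, a fatty acid hydroxylase of the PPAR-alpha program, read 10.2, 10.9 and 5.46 there and 10.8, 11.1 and 9.64 in knockout. Mfsd2a, a lysolipid transporter, read 9.20, 8.89 and 4.68, and Vnn1, a pantetheinase, 9.67, 9.21 and 5.97. In knockout the largest SD was that of Onecut1 (2.64), followed by the immediate early gene Nr4a1 (1.91), which read 6.05, 4.19 and 8.01, and Bcl6 (1.79). For Cyp4a10, Mfsd2a and Vnn1 replicate 3 was also the lowest knockout array, at 9.64, 6.81 and 6.5, and for Saa1 and Saa2 it was the highest.

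**Figure D4:**
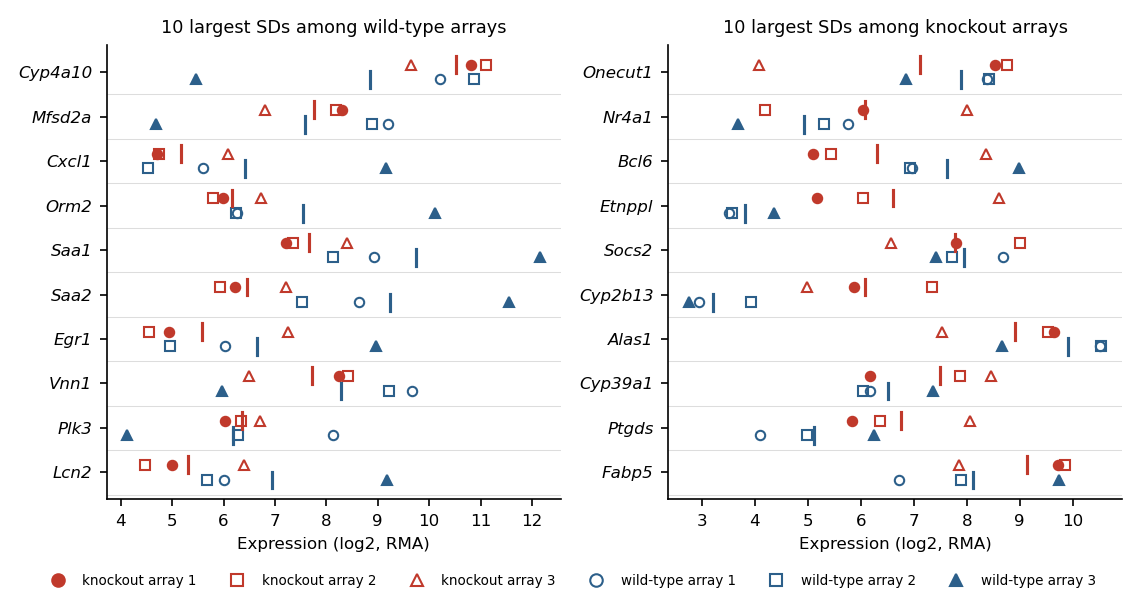
Log2 expression on each liver array of the 10 genes with the largest SD among wild-type arrays and among knockout arrays, with a mean of at least 6 there. Filled triangles are wild-type replicate 3, which stands at 5.46 for Cyp4a10 and 12.2 for Saa1.

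Few markers of the cell types of liver were called. Of 11 hepatocyte markers none was called by limma, none had an unadjusted p under 0.05, and their mean level was 12.0 to 12.1 on the knockout arrays and 11.9 to 12.0 on the wild-type arrays. Alb, serum albumin, lay between 13.4 and 13.5 on all 6 arrays. Among 15 markers of Kupffer cells and macrophages only Marco, a scavenger receptor, was called higher. It read 3.82, 6.70 and 5.69 against 3.93, 3.49 and 4.22, with overlap, and was lost without 4 single arrays (adjusted p up to 0.194). The mean level of that list was 5.72 to 6.27 in knockout and 5.48 to 5.81 in wild type. Clec4f, which defines Kupffer cells, had means of 6.75 and 6.22, and its part in the interferon results was not tested. None of 12 sinusoidal endothelial, 13 stellate and 7 cholangiocyte markers was called.

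Immune cell and stray-tissue markers were mostly near the array medians. Of 12 T and NK cell markers only the chemokine Ccl5 rose, at 5.85, 4.81 and 5.40 against 4.57, 4.04 and 4.40 (1.01 ± 0.24), a call lost without knockout replicate 1 or 3 or wild-type replicate 2 (adjusted p up to 0.170), while the receptor chains Cd3e, Cd3g and Cd3d lay between 2.65 and 3.53 on the 6 arrays. None of 8 B cell, 8 neutrophil, 5 adipocyte, 8 pancreatic acinar and 8 skeletal muscle markers was called. Alas2, the heme synthesis enzyme of red cell precursors, fell from 8.47, 8.46 and 8.27 to 7.13, 6.92 and 6.73 (-1.47 ± 0.22) and was called in both fits. The globin Hba-a1 had means of 12.1 in knockout and 12.3 in wild type and was not called. Among 10 pericentral and 8 periportal hepatocyte markers Rhbg fell (-0.63 ± 0.16) and Pck1 rose, each losing its call without at least 1 single array (adjusted p up to 0.107 and 0.0556).

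**Figure D5:**
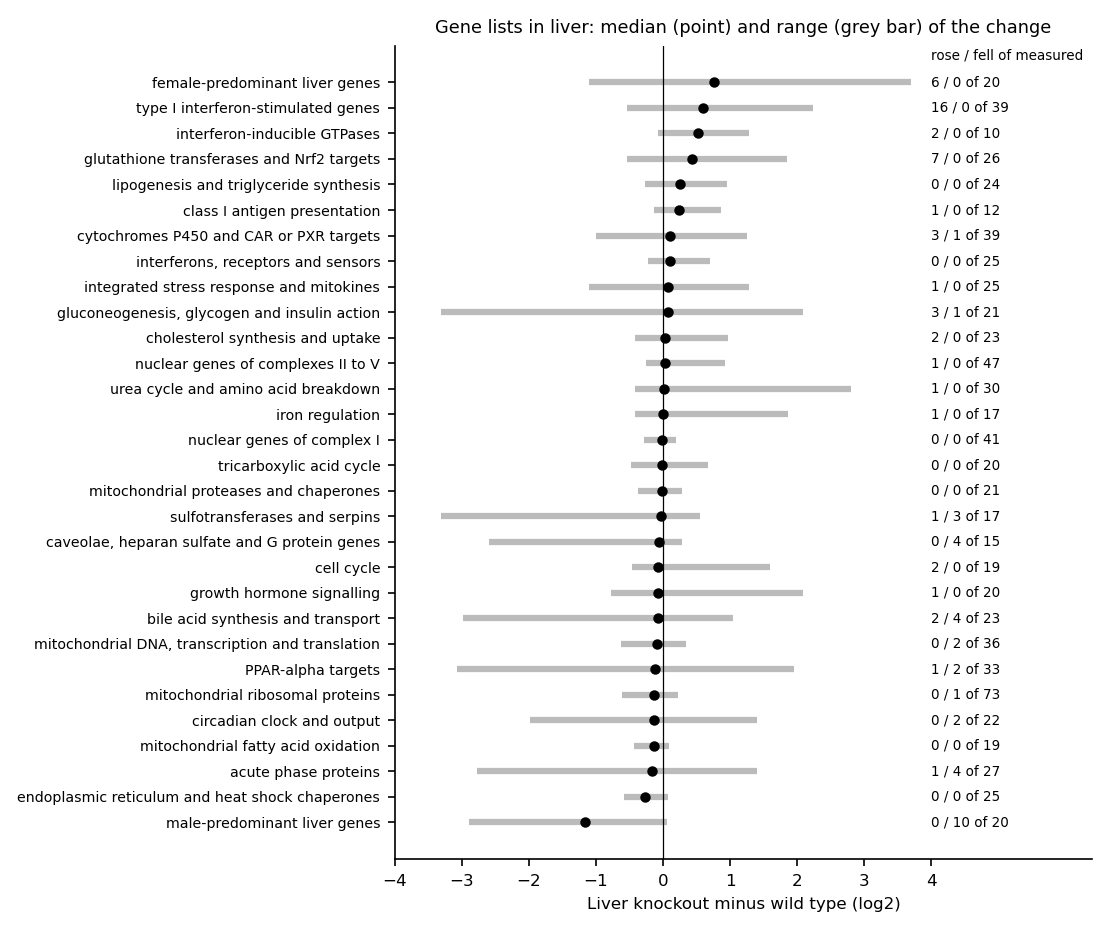
Median (point) and range (grey bar) of the knockout minus wild-type change on the log2 scale for each gene list in liver, with the numbers that rose and fell among those measured. The male-predominant list has the lowest median (-1.16) and the female-predominant list the highest (0.76).

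Calls in liver were compared with those in muscle, brain and heart. Of the 156 rises 20 were also called higher in muscle, 16 in brain and 23 in heart, or 12.8%, 10.3% and 14.7% of the liver rises and 15%, 40.0% and 12.2% of the rises of those tissues. Of the 257 falls 3, 1 and 10 were shared, with Clpp itself among them in each tissue and the only one in brain. Of all genes 0.76%, 0.181% and 1.07% were called lower in those tissues. Of the falls 245 were called lower in no other somatic tissue, although for each gene only a test of the difference shows that tissues differ. The difference between the liver change and the mean change of muscle, brain and heart was called for 201 genes (1.18%), 71 above (0.415%) and 130 below (0.76%). Of these 58 were among the liver rises and 112 among the falls. On the male-predominant list 9 of 20 genes were called below the other tissues, and on the female-predominant list 5 of 20 were called above them. Several of these genes were near the array medians outside liver, where a fall could not be seen, so a fall in liver alone can make such a difference. Serpina12 and Hsd3b5 had wild-type means of 2.33 to 2.67 there, Elovl3 2.62 to 2.84 and Slco1a1 2.47 to 2.86. For Gnai1 the change was -2.34 in liver, -0.66 in muscle, 0.00 in brain and 0.77 in heart. Cav1 changed by -0.22 in muscle, 0.22 in brain and -0.06 in heart.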

How the data were processed

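Total RNA of 30 samples was labelled and hybridised to mouse expression arrays, per the labels. The deposited values are log2 expression made by the authors with RMA in R 2.14.0, per the submitters' processing notes, and whether all arrays were processed together is not given in the sources used here. No array was normalised again. Of 45141 probe sets 28898 named 1 gene symbol, 551 several and 15692 none, and each of 17097 genes was read from its brightest probe set, by mean over the 30 arrays. Group means were fitted over the 10 groups with limma 3.58.1 in R 4.3.3, with Benjamini-Hochberg adjustment over all genes. Calls need an adjusted p under 0.05. In data simulated for the liver comparison over 17097 genes, 31.5% of changes of 0.5, 87.5% of 1 and 100% of 2 log2 units were recovered. With liver alone the shares were 6.85%, 67.2% and 100%. The simulation gave each gene the same spread in every group, so it does not describe genes that vary more in liver than elsewhere. Genes named are the 15 largest rises and falls, called list members, the 10 largest tissue differences and spreads, and list members whose role is described. Members and lists were chosen with earlier results of these data known, and the lower-bound level of 4 after values were seen. Alternatives were liver alone, replicate block, other priors and weights, renormalisation, probe set rules, expression filters, a threshold of 0.01, and each liver array left out. The number of arrays limits the precision. Members of most lists that were not matched to a tested gene, female- and male-predominant genes among them, were not analysed here, and list counts are of measured members.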

Additional observations from a re-analysis of the deposited data

Results flagged for a closer look

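The knockout effect in liver was set against the mean effect in muscle, brain and heart, and the difference was tested with limma. The results here are those with the largest called differences and the called interferon-stimulated genes, all on the log2 scale. Above the other tissues were Cyp2b9 by 3.70, Cyp2b13 by 2.84, Etnppl by 2.71, Igfbp1 by 2.06 and Ndrg1 by 1.98. Acot3 stood 1.91 above them, Cyp17a1 1.81, Gstm3 1.78, Hsd17b6 1.65 and Rnf144a, a ubiquitin ligase, 1.57. Below the other tissues the difference was -3.84 for Serpina4-ps1, -3.42 for Serpina12, -3.06 for Hsd3b5, -2.93 for Slc22a7 and -2.80 for Saa2. It was -2.57 for Cav1, -2.51 for Gpc1, -2.42 for Sult5a1, -2.37 for Gnai1 and -2.25 for Elovl3. Among interferon-stimulated genes it was -1.28 for Ifit3, -1.11 for Ifit1, -0.78 for Ifit2, -0.65 for Parp9 and -0.62 for Ifi27. Serpina4-ps1, Serpina12, Hsd3b5, Slc22a7, Saa2 and Elovl3 were near the array medians outside liver, where a fall could not be seen. The causes of these differences were not tested.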

How the results depend on the processing

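In liver 413 genes were called (156 higher, 257 lower). The 6 liver arrays alone gave 31 calls (15 and 16), a replicate block added there 13 (5 and 8), and an adjusted p under 0.01 in the fit of all arrays 209 (73 and 136). Over genes above the median of overall means 98 were higher. With the replicate block on all 30 arrays 369 were called (137 and 232). The deviations of same-numbered liver arrays correlated at -0.10, 0.021 and 0.138, and those of arrays with different numbers at -0.263 to 0.243. With 3 arrays per group these values cannot decide whether the numbers pair the samples. Leaving out 1 liver array gave 293 to 423 calls, 118 to 159 higher and 174 to 264 lower. The difference from the other somatic tissues was called for 201 genes (71 above, 130 below), for 347 with array weights (132 and 215), 93 over genes above the median of overall means (38 and 55), 2448 against all 4 other tissues, testis included (1251 and 1197), and 91 at 0.01 (23 and 68). With 1 liver array left out it was called for 148 to 234 genes, 47 to 74 above (47 without knockout replicate 2) and 101 to 161 below. With probe sets not shared between genes Hamp2 read -0.10 in liver and -0.38 against the other tissues. With 1 liver array left out the change in Moxd1 ran from -3.71 (without wild-type replicate 2) to 0.06 (without wild-type replicate 3). Of 89 named genes called in liver 70 were called without each single liver array and 29 with liver alone. The causes of these shifts were not tested. Levels near the array medians limit what could be measured in low genes.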

Other observations

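Other genes called in both fits lay outside the lists above. Apol9a, an apolipoprotein L, read 10.0, 10.2 and 10.1 in knockout and 8.21, 8.64 and 8.89 in wild type (1.51 ± 0.19). Ifi213, of the interferon-inducible p200 family of DNA sensors, read 4.02, 4.27 and 4.37 against 3.06, 3.04 and 3.26, a rise of at least 1.10 ± 0.18. In both the groups do not overlap. The core bound by STAT factors, TTC and GAA with 3 bases of any kind between them, was searched on both strands of the 250 bases before the start, where it was present in 7.02% of all promoters and in 7.59% of those of tested genes. It was present in 2 of 15 promoters of female-predominant genes (13.3%) and in 4 of 16 of male-predominant genes (25.0%).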
